A study of Mus musculus with 8 samples.

Results

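The genes Lifr, Il6st, Jak1, Stat3 and Socs3 form the core of the signalling chain by which mouse embryonic stem (ES) cells read leukaemia inhibitory factor (LIF). They were taken by symbol, and all 5 were found among the 18821 genes of the gene tables and measured in all 8 libraries. LIF binds the receptor chain encoded by Lifr, which pairs with gp130, the shared signalling chain encoded by Il6st. Jak1 encodes the main kinase bound to these chains. It phosphorylates Stat3, the transcription factor that carries the signal to the nucleus, and STAT3 switches on Socs3, whose product blocks the receptor complex and so limits the signal. In ES cells grown with serum and LIF this chain holds back differentiation, partly through targets such as Klf4, Tfcp2l1 and Gbx2.

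RNA was sequenced from the mouse ES line J1 in 4 groups of 2 libraries, in 2 arms with separate controls. In the knockdown arm, KD Zscan4 cells carried pSuper puro with a short hairpin RNA against Zscan4 and KD control cells a random control, while in the overexpression arm OE Zscan4 cells held pCMV-tag2 with the Zscan4c coding region, set against OE control. All groups received 10 ng/ml LIF and 15% serum on gelatin. All were transfected with 1000 ng of plasmid, put under selection after 24 h (puromycin at 2 µg/ml for 7 days in the knockdown arm, G418 in the overexpression arm at 500 µg/ml for 10 days) and picked as single clones. Whether the libraries of a group came from different clones or cultures is not in the labels, and a p-value then reflects the spread between these samples alone, which may be technical. No group without LIF was measured, so the values are mRNA levels under a constant LIF supply and say nothing of phosphorylated protein.

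The gene tables corresponded to 17.39 to 22.38 M reads per library, and a single library held 738 to 5553 reads of any of the 5 genes. Values below are normalised read counts, changes are log2(value + 1) in a Zscan4 group minus that in its own control, called log2 fold changes and smaller than the true change for low genes, and a gene passes at a limma adjusted p under 0.05. Zscan4c, one of a cluster of near-identical genes whose reads cannot be fully told apart, followed the labels. It stood at 575 and 566 in KD control against 11.2 and 15.5 in KD Zscan4, and at 60.1 and 75.2 in OE control against 1074 and 981 in OE Zscan4, where transcripts of the plasmid can add reads. Nanog, a defining marker of ES cells, stood at 10641 or more in every library, with log2 fold changes of 0.35 in the knockdown and 0.48 in the overexpression. Of 7 listed ES cell markers, 3 rose and 1 fell in the knockdown, where 17.2% of all genes rose and 18.5% fell. In the overexpression 5 rose and 0 fell, beside 22.3% and 22.1% of all genes. Fewer of the markers rose there without OE Zscan4 replicate 1, where their median was 0.21 rather than 0.27. The knockdown fall was lost without either KD control replicate, and limma-voom called 2 falls in the knockdown. In the knockdown arm 1 chromosome stood apart: the median log2 fold change was 0.56 over 703 genes of chromosome 1 and between -0.07 and 0.02 on the other 18 autosomes. With all 8 libraries scaled jointly, the median log2 level of chromosome 1 genes against KD control was 0.55 in KD Zscan4, 0.64 in OE control and 0.59 in OE Zscan4. KD control was thus the group set apart on chromosome 1. In the overexpression arm chromosome 11 stood apart, with a median of -0.34 over 1087 genes and medians between -0.07 and 0.09 on the other 18 autosomes. Stat3 and Socs3 lie on chromosome 11, and the other genes described in full on chromosomes 15 (Lifr), 13 (Il6st) and 4 (Jak1).

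Lifr and Il6st, the receptor chains, were both higher in OE Zscan4 than in OE control, and Lifr was lower in KD Zscan4 than in KD control. Lifr (ENSMUSG00000054263, mm10 chromosome 15, 7090614 to 7197489, plus strand) stood at 1060 and 1056 in KD control and at 853 and 937 in KD Zscan4. The groups did not overlap, and KD Zscan4 held 84.6% of the control level. Lifr fell in the knockdown, with a log2 fold change of -0.24 (SE 0.07 and limma adjusted p = 0.016). It stood at 800.0 and 938 in OE control and at 1053 and 979.9 in OE Zscan4. Here both OE Zscan4 libraries lay above both controls, at 117% of the control mean, with OE control replicate 1 the lowest of the 4. Lifr rose, with a log2 fold change of 0.23 (SE 0.09 and limma adjusted p = 0.040).

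The Lifr calls within each arm were lost under 5 alternatives in the knockdown and 7 in the overexpression. In the knockdown the call was lost without KD control replicate 1 (-0.24), KD control replicate 2 (-0.25) or KD Zscan4 replicate 1 (-0.18), with DESeq2 (-0.24) and after the median of chromosome 15 was subtracted (-0.17). In the overexpression it was lost without OE control replicate 1 (0.11), OE Zscan4 replicate 1 (0.18) or OE Zscan4 replicate 2 (0.28), and with edgeR (0.21), DESeq2 (0.23), limma-voom (0.22) or TMM scaling (0.21).

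Il6st (ENSMUSG00000021756, chromosome 13, 112464070 to 112510086, plus strand) encodes gp130, which also serves the receptors for interleukin-6, interleukin-11 and ciliary neurotrophic factor. Its values were 1129 and 1203 in KD control and 1093 and 1151 in KD Zscan4. These groups overlapped, and the log2 fold change of -0.06 (95% interval -0.20 to 0.09, limma adjusted p = 0.55) did not pass. In the overexpression arm the values were 896 and 845 in OE control and 1055 and 999 in OE Zscan4, so both OE Zscan4 libraries were above both controls. Il6st rose to 118% of its control, a log2 fold change of 0.24 (SE 0.08 and limma adjusted p = 0.019). The call was lost without OE Zscan4 replicate 1 (0.20) or OE Zscan4 replicate 2 (0.28), with DESeq2 (0.24) and after the median of chromosome 13 was subtracted (0.18).

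**Figure D1:**
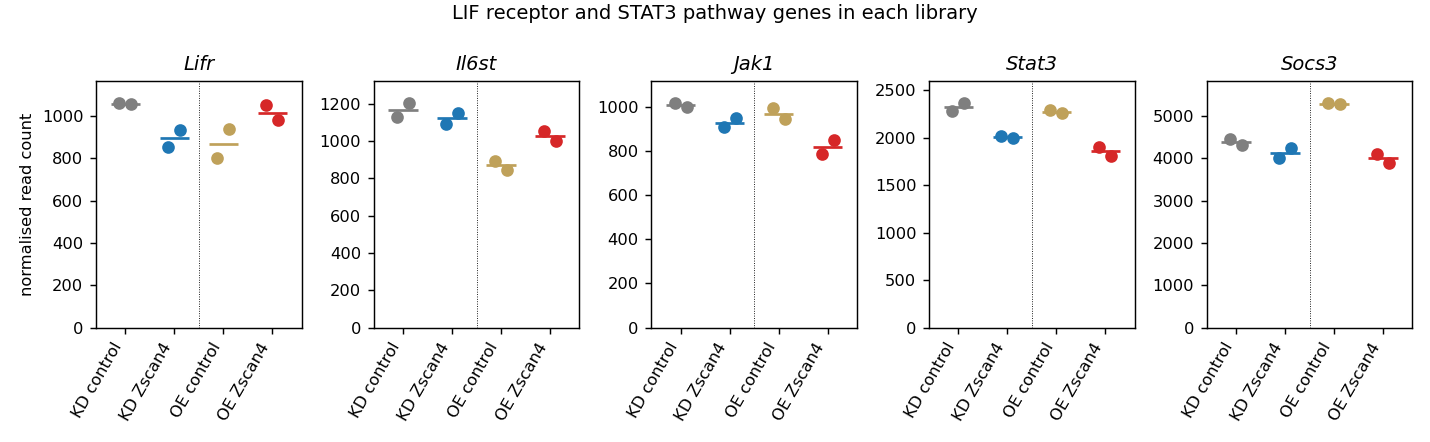
Normalised read count (vertical axes, from 0) of Lifr, Il6st, Jak1, Stat3 and Socs3 in each of the 8 libraries; points are libraries, bars are the means of 2 libraries, and the dotted line parts the arms, whose tables were normalised separately. The 2 receptor chains are higher in OE Zscan4 than in OE control, whereas Jak1, Stat3 and Socs3 are lower there, with Socs3 falling from 5295 and 5284 to 4092 and 3899.

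Jak1 (ENSMUSG00000028530, chromosome 4, 101152367 to 101265282, minus strand) was lower in both Zscan4 groups, and passed in the overexpression. The kinase gene stood at 1016 and 998 in KD control and at 909 and 948 in KD Zscan4. Both KD Zscan4 libraries lay below both controls, but the log2 fold change of -0.12 (95% interval -0.26 to 0.02, limma adjusted p = 0.19) did not pass. In OE control it stood at 994 and 946, and in OE Zscan4 at 785 and 850.2. Jak1 fell to 84.3% of its control, with a log2 fold change of -0.25 (SE 0.08 and limma adjusted p = 0.018). With the median of chromosome 4 subtracted, the log2 fold change was -0.30 (limma adjusted p = 0.0052). The call was lost without OE Zscan4 replicate 1 (-0.19) and with DESeq2 (-0.25).

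Stat3 (ENSMUSG00000004040, chromosome 11, 100885098 to 100939540, minus strand) fell in both arms, and in the overexpression by about as much as its whole chromosome. It stood at 2280 and 2361 in KD control and at 2018 and 1999 in KD Zscan4, groups that did not overlap. KD Zscan4 held 86.6% of the control level, a log2 fold change of -0.21 (SE 0.05 and limma adjusted p = 0.010). This call was lost without KD control replicate 2 (-0.18), and the log2 fold change with the median of chromosome 11 subtracted was -0.19 (limma adjusted p = 0.018). In the overexpression arm Stat3 stood at 2291 and 2259 in OE control and at 1905 and 1811 in OE Zscan4, again without overlap. It fell to 81.7% of its control, with a log2 fold change of -0.29 (SE 0.07 and limma adjusted p = 0.0020), a call lost without OE Zscan4 replicate 2 (-0.26). That change is about the median change of chromosome 11 in this arm (-0.34), and with that median subtracted Stat3 stood at 0.04 on the log2 scale (limma adjusted p = 0.63).

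Socs3 (ENSMUSG00000053113, chromosome 11, 117966079 to 117970047, minus strand), the feedback inhibitor, was the most abundant of the 5 transcripts and had the largest change of the 5 in the overexpression. Its values were 4446 and 4322 in KD control and 4006 and 4234 in KD Zscan4. Both KD Zscan4 libraries lay below both controls, and the log2 fold change of -0.09 (95% interval -0.20 to 0.02, limma adjusted p = 0.20) did not pass. In OE control it stood at 5295 and 5284, and in OE Zscan4 at 4092 and 3899. The OE control libraries were the highest of all 8. Socs3 fell to 75.5% of its control, a log2 fold change of -0.41 (SE 0.06 and limma adjusted p = 7.1e-05), and kept its call when any 1 library was left out (-0.44 to -0.37). As for Stat3, the fall did not pass once the median of chromosome 11 was subtracted, where it was -0.07 (limma adjusted p = 0.43). The part of the chromosome-wide difference in the Stat3 and Socs3 results was not tested further.

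**Figure D2:**
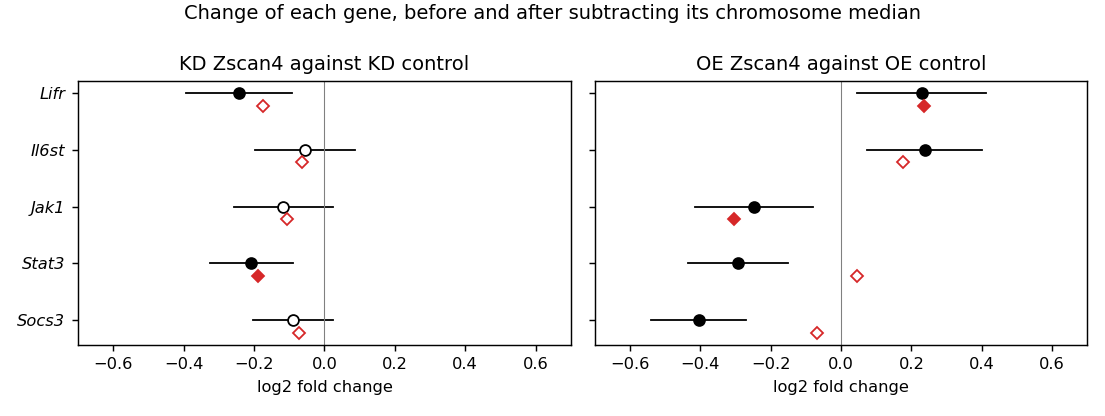
Log2 fold change (horizontal axis) of the 5 genes in each arm, as deposited (black circles with 95% intervals) and with the median change of the gene's own chromosome subtracted (red diamonds); filled symbols passed a limma adjusted p under 0.05. In the overexpression arm Stat3 moves from -0.29 to 0.04 and Socs3 from -0.41 to -0.07.

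**Figure D3:**
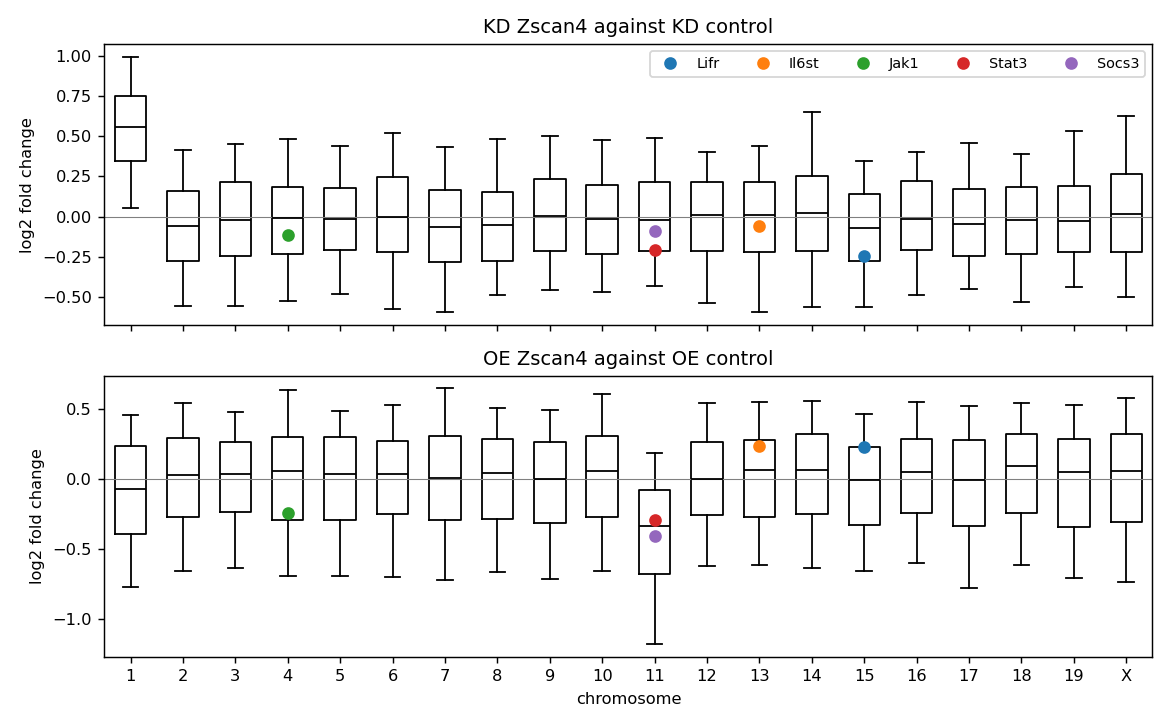
Log2 fold change (vertical axes) on each chromosome, for protein-coding genes whose mean is at least 20; boxes span the quartiles with the median as a line, whiskers run from the 10th to the 90th percentile, and coloured points are the 5 genes. Chromosome 1 stands above 0 in the knockdown (median 0.56) and chromosome 11 below 0 in the overexpression (median -0.34), where Stat3 and Socs3 lie close to the median of their chromosome.

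Read as a group, 2 of the 5 genes passed in the knockdown, both lower, against 35.7% of all 17938 genes tested in either direction and 18.5% lower. The groups did not overlap for 4 of the 5, all lower in KD Zscan4, beside 67.8% of all genes and 33.8% in that direction. In the overexpression all 5 passed, 2 higher and 3 lower, where 44.3% of 18292 genes passed (22.3% higher and 22.1% lower), and all 5 had groups without overlap, as did 71.2% of all genes. With chromosome medians subtracted, 1 of the 5 passed in the knockdown (Stat3) beside 33.3% of all genes, and 2 in the overexpression (Lifr and Jak1) beside 42.6%. The sizes were ordinary for these libraries. Among genes with a mean of at least 20, the median size of change, without sign, was 0.23 for knockdown and 0.30 for overexpression. Between 48.2% (Lifr) and 86.8% (Il6st) of those genes changed by more than each of the 5 in the knockdown, and between 37.9% (Socs3) and 60.5% (Lifr) in the overexpression.

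The changes in the knockdown and overexpression arms were then compared with each other. A positive difference means that a gene was higher relative to its control in the overexpression than in the knockdown, and 44.7% of the 17409 genes in both tables passed this test. Lifr passed, with a difference of 0.47 on the log2 scale (SE 0.12 and limma adjusted p = 0.0033), and so did Il6st, with 0.29 (SE 0.10 and limma adjusted p = 0.023). Socs3 passed in the other direction, with -0.32 (SE 0.08 and limma adjusted p = 0.0033). For Jak1 the difference was -0.13 (95% interval -0.34 to 0.08, limma adjusted p = 0.31), and for Stat3 it was -0.08 (95% interval -0.26 to 0.09, limma adjusted p = 0.43). With chromosome medians subtracted, the difference was 0.41 for Lifr (limma adjusted p = 0.009), 0.24 for Il6st (limma adjusted p = 0.059), 0.0030 for Socs3 (limma adjusted p = 0.98) and 0.23 for Stat3 (limma adjusted p = 0.027), and 42.7% of all genes passed. The Il6st call was also lost without KD control replicate 2 (0.25), KD Zscan4 replicate 1 (0.26), OE control replicate 2 (0.25) or OE Zscan4 replicate 1 (0.25). Lifr was the single gene of the 5 that passed in both arms in opposite directions, and Stat3 the single one that passed in both arms in the same direction. With chromosome medians subtracted, neither of these 2 genes passed in both arms. Over all 17409 genes in both tables, 12.3% passed in both arms in opposite directions, while 676 passed as higher in both and 627 as lower in both.

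To place all 8 libraries on one scale, the reads behind the 2 tables were scaled jointly and expressed as CPM, a measure of a gene's share of a library's reads. On this scale Lifr was highest in KD control (53.7 CPM ± 0.27, SD, n = 2), then OE Zscan4 (51.6 ± 2.44), KD Zscan4 (45.3 ± 3.22) and OE control (44.1 ± 5.06), and the last 2 overlapped. The order for Il6st was KD control (59.2 CPM ± 2.53), KD Zscan4 (56.7 ± 2.38), OE Zscan4 (52.1 ± 1.84) and OE control (44.1 ± 1.75), and the first 2 overlapped. Both receptor chains thus had their lowest mean level in OE control, and neither Zscan4 group exceeded KD control. KD control was also highest for Jak1 (51.2 CPM ± 0.71), ahead of OE control (49.2 ± 1.61), KD Zscan4 (47.0 ± 1.65), which overlapped with OE control, and OE Zscan4 (41.5 ± 2.49). Stat3 stood at 118 CPM ± 2.67 in KD control and 115 ± 0.90 in OE control, which overlapped, above KD Zscan4 (102 ± 0.17) and OE Zscan4 (94.3 ± 3.06).

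Socs3 alone of the 5 was highest in OE control, at 268 CPM ± 0.23, above KD control (223 ± 4.91), and KD Zscan4 (208 ± 9.24) overlapped with OE Zscan4 (203 ± 6.27). Chromosome 11 as a whole stood apart in the same group: against KD control, the median log2 level of its genes was 0.29 in OE control, -0.09 in OE Zscan4 and -0.02 in KD Zscan4. Stat3, though on that chromosome, stood no higher in OE control (115 CPM) than in KD control (118 CPM). The highest group exceeded the lowest by 1.22-fold for Lifr, 1.34-fold for Il6st, 1.23-fold for Jak1, 1.25-fold for Stat3 and 1.32-fold for Socs3.

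Per kilobase of exon, the unit in which genes can be compared with each other, Socs3 was the highest of the 5 in every library (68.6 to 92.8 CPM per kb), followed by Stat3 (9.67 to 12.6) and Jak1 (5.50 to 7.15). Il6st (3.87 to 5.50) and Lifr (3.76 to 5.01) overlapped, so the 2 chains of the LIF receptor were measured at like levels per kb. Of the other kinases of the family, Jak3 stood at 8.07 to 10.4 CPM per kb, Tyk2 at 4.71 to 8.49 and Jak2 at 0.72 to 1.45, the lowest of the 4. Cntfr, the receptor chain for ciliary neurotrophic factor, ranged most widely, from 19.2 and 19.4 CPM per kb in KD control to 1.92 and 2.05 in OE control.

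**Figure D4:**
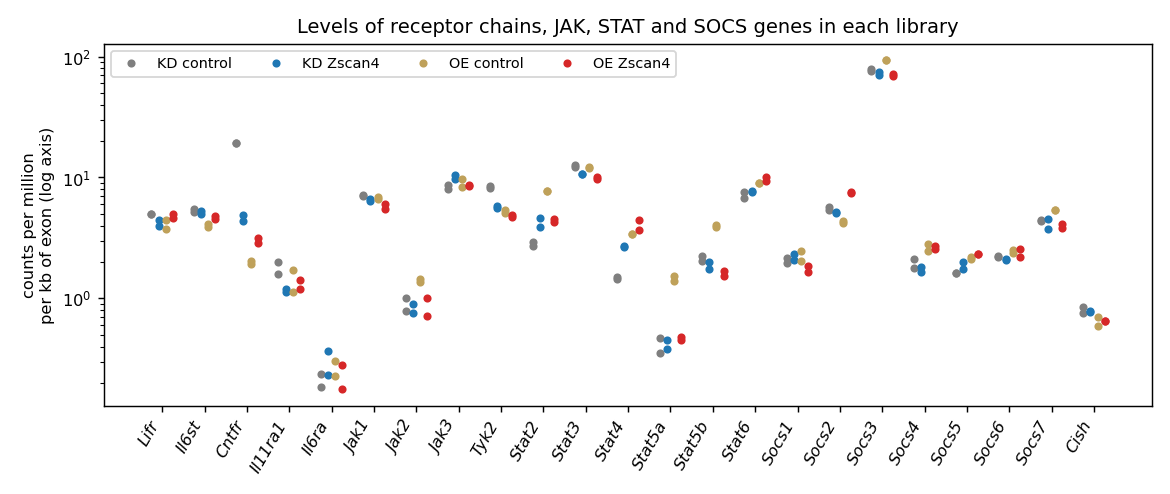
Jointly scaled CPM per kilobase (kb) of exon (vertical log axis) of receptor chains, JAK, STAT and SOCS family genes; each point is a library, coloured by group. Socs3 lies between 68.6 and 92.8 in all libraries, above every other gene plotted, and Cntfr spreads from 1.92 to 19.4.

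The promoters of Stat3 and Socs3 are shown because both genes are known targets of STAT3 itself and both fell in the overexpression. The windows run from 250 bases before to 50 bases after the RefSeq start (300 bases, RefSeq, GRCm38.p6, which has the coordinates of mm10), and were searched for TTCNNNGAA, the core of the sequence that STAT dimers bind, which reads the same on both strands. Capitals mark a match. The Stat3 window, chr11:100939491-100939790 (minus strand), holds none, and the Socs3 window, chr11:117969317-117969616 (minus strand), holds 1, from 117969512 to 117969520.
Stat3: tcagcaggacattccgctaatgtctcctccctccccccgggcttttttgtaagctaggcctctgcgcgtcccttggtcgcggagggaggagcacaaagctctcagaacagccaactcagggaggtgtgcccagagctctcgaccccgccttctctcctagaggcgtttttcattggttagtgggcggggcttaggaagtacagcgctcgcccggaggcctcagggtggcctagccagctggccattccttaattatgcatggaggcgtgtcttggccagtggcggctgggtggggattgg
Socs3: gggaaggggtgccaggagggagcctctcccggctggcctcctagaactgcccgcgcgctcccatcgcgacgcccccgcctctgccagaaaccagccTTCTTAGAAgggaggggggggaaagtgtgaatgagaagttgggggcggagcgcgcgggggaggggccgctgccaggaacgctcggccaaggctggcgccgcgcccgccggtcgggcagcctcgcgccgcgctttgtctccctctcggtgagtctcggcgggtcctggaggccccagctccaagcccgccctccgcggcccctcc
The RefSeq start of Socs3 lies 681 bases inside the GENCODE gene, which opens with a longer non-coding transcript, and 180 bases before the GENCODE coding transcript, and the match is in no annotated exon. TTCNNNGAA occurs in 8.30% of all 32851 windows, in 1 of 6 windows of the 5 genes, in 4 of 20 windows of the STAT3 target list and in 9 of 91 windows of all the pathway genes listed. The windows of Lifr, Il6st and Jak1 hold no match. Those of Lifr follow RefSeq starts 38958 and 49928 bases inside the GENCODE gene, so the Lifr gene start given above was not searched. The narrower TTCCNGGAA, a subset of the same pattern found in 1.15% of all windows, is in none of the 6 windows of the 5 genes. No binding was measured here, so a match is a description of these letters.

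The wider pathway was read from lists of ligands, receptors, kinases, STAT factors, inhibitors, STAT3 targets and the MAPK and PI3K branches that also start at the LIF receptor. The counts below stand against all genes tested, of which 17.2% rose and 18.5% fell in the knockdown and 22.3% rose and 22.1% fell in the overexpression. Among receptor chains, 3 of 7 measured fell in the knockdown (Lifr, Cntfr and Il11ra1) and 3 of 6 rose in the overexpression (Lifr, Il6st and Cntfr), with medians of -0.06 and 0.06 beside 0.0078 and -0.0022 over all genes. The knockdown median moved to -0.25 without KD control replicate 2 and to -0.19 without KD Zscan4 replicate 1. That in the overexpression moved to -0.02 without OE Zscan4 replicate 1, 0.18 without OE Zscan4 replicate 2 and 0.16 without OE control replicate 1. Without KD control replicate 1, 1 rather than 3 fell in the knockdown, with Il11ra1 at -0.44, and without either OE Zscan4 replicate 1 rather than 3 rose in the overexpression. DESeq2 also called 1 fall in the knockdown and 1 rise in the overexpression. Cntfr had by far the largest change of the receptors. It fell from 1058 ± 10.8 to 254 ± 18.7 in the knockdown (log2 fold change -2.06, SE 0.08 and limma adjusted p = 9.5e-09) and rose from 109 ± 5.27 to 166 ± 10.9 in the overexpression (0.60, SE 0.15 and limma adjusted p = 0.0034). Of the ligands, 2 of 8 measured fell in the knockdown and 2 of 9 in the overexpression. In the overexpression 1 fell with the replicate block, DESeq2, chromosome medians subtracted, a pseudocount of 8 or all 8 libraries in one fit. Fewer also fell there without OE control replicate 2 or either OE Zscan4 replicate. Lif itself was low and fell in the knockdown, from 121 ± 22.2 to 60.9 ± 7.21 (-0.98, SE 0.19 and limma adjusted p = 0.0018), while 10 ng/ml LIF was in the medium. In the overexpression Lif stood at 89.6 and 101 against 69.1 and 67.6, a change of -0.47 (limma adjusted p = 0.050) that lost its call when any 1 library was left out (-0.56 to -0.39), with DESeq2 (-0.48, adjusted p = 0.25) and with the replicate block (-0.47, limma adjusted p = 0.054). Its call was also lost with a pseudocount of 8 (-0.43, limma adjusted p = 0.053) and in the fit of all 8 libraries (-0.47, limma adjusted p = 0.051). Lif too lies on chromosome 11, and with that median subtracted the value was -0.13 and did not pass (limma adjusted p = 0.58).

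Of the 4 kinases, 1 rose and 1 fell in the knockdown, and Jak1 and Jak2 fell in the overexpression. Tyk2 fell in the knockdown, from 1129 ± 28.4 to 769.7 ± 15.1 (log2 fold change -0.55, SE 0.07 and limma adjusted p = 4.8e-05), and Jak3, the kinase of lymphoid cytokine receptors, rose there by 0.27, a call lost without KD control replicate 2 (0.22). In the overexpression Jak2 fell by 0.72 on the log2 scale, from 135 and 143 to 71.2 and 99.6, a call lost without OE Zscan4 replicate 1 (-0.48).

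Of the 7 STAT factors, 3 rose in the knockdown (1 with chromosome medians subtracted) and Stat3 fell, with a median of 0.10 (0.24 without KD control replicate 1), and 4 fell in the overexpression, with a median of -0.29. Stat2, which carries interferon signals, rose by 0.60 in the knockdown and fell by 0.82 on the log2 scale in the overexpression. The knockdown rise of Stat4 (0.86), on chromosome 1, was 0.30 with the median of that chromosome subtracted and did not pass. Stat5a and Stat5b lie beside Stat3 on chromosome 11. In the overexpression Stat5a stood at 197 and 214 in OE control and 63.8 and 67.6 in OE Zscan4 (log2 fold change -1.63, SE 0.16 and limma adjusted p = 3.4e-07). Stat5b fell from 432 ± 12.4 to 176 ± 10.8 (-1.30, SE 0.11 and limma adjusted p = 8.2e-08). Both falls passed with the median of chromosome 11 subtracted, at -1.29 and -0.96, whereas that of Stat3 did not. The annotated ends of Stat5a and Stat3 overlap by 72 bases on opposite strands, and the sources do not give the strand setting of the counting, so reads there cannot be told apart. With chromosome medians subtracted, the list's median in the overexpression was 0.04, and 2 genes rather than 0 rose. Stat4 was 1 of them, at 0.32 (limma adjusted p = 0.033). In the fit of all 8 libraries 1 STAT factor rose in the overexpression.

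Of 15 inhibitors, 1 rose and 1 fell in the knockdown (median -0.04), and 2 rose and 4 fell in the overexpression (median -0.07), so that the falls there were near the 22.1% of all genes. The knockdown median was 0.02 without KD control replicate 2 and -0.07 without KD control replicate 1. That in the overexpression was -0.12 without OE control replicate 2 and -0.13 without OE Zscan4 replicate 2. Besides Socs3 in the overexpression, Pias3, which encodes an inhibitor of STAT3, fell in both arms, with log2 fold changes of -0.54 and -0.53. Socs2 rose in the overexpression from 803 ± 18.6 to 1409 ± 5.26 (log2 fold change 0.81, SE 0.07 and limma adjusted p = 1.6e-07) and stood at -0.10 in the knockdown (limma adjusted p = 0.28). Ptpn6, which encodes the phosphatase SHP-1, rose in the knockdown by 0.33, a call lost without KD control replicate 1 (0.27), and fell in the overexpression by 0.67 on the log2 scale. Pias2 rose by 0.47 in the overexpression.

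The listed STAT3 targets, which include Stat3 and Socs3 themselves, held some of the largest changes of the pathway. In the knockdown 3 of 16 rose and 11 fell (median -0.21), and in the overexpression 10 of 17 rose and 4 fell (median 0.25). Without KD control replicate 2, 6 rather than 11 fell, and 2 rather than 4 fell in the overexpression without OE Zscan4 replicate 2. With chromosome medians subtracted, 1 rather than 3 rose in the knockdown and 2 rather than 4 fell in the overexpression. Of the 16 targets in both tables, 11 passed in both arms in opposite directions, beside 12.3% of all genes. Of the 11, 9 passed as lower in the knockdown and higher in the overexpression, as did 1158 of the 17409 shared genes. Of these 11, the knockdown calls of Klf4, Pim3 and Icam1 were lost with DESeq2 (adjusted p = 0.097, 0.095 and 0.16). They were also lost with chromosome medians subtracted (limma adjusted p = 0.068, 0.27 and 0.052), where Pim3 stood at -0.08. The knockdown call of Tfcp2l1 was lost there too (0.07, limma adjusted p = 0.38). Gbx2, a homeobox gene, had 3751 and 3637 in KD control against 1111 and 1167 in KD Zscan4, and 259 and 307 in OE control against 1263 and 1188 in OE Zscan4. Its log2 fold changes were -1.70 (SE 0.06 and limma adjusted p = 1.6e-09) and 2.11 (SE 0.10 and limma adjusted p = 2.6e-11). Myc, which encodes the growth regulator c-Myc, followed the same course, with 2212 and 2270 falling to 707 and 658, and 164 and 227 rising to 804 and 776. On the joint scale both genes were highest in KD control (188 CPM for Gbx2 and 114 for Myc) and lowest in OE control (14.4 and 9.91).

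Klf5 (-0.83 and 0.73), Junb (-0.68 and 0.73), Sall4 (-0.39 and 0.80) and Klf4 (-0.17 and 0.84) also fell in the knockdown and rose in the overexpression. Pim1 (-0.21 and 0.19), Pim3 (-0.15 and 0.24) and Mcl1 (-0.25 and 0.25) did so by small amounts. Icam1 (0.16 and -0.27) and Tfcp2l1 (0.62 and -0.41) went the other way. Tfcp2l1, on chromosome 1, stood at 0.07 in the knockdown with that chromosome's median subtracted and did not pass. Sgk1 rose in both arms (1.12 and 0.34), while Bcl3 stood at 0.01 and -0.01 and did not pass. Zfp36 fell in the knockdown (-0.60) and stood at -0.20 in the overexpression. With the replicate block the knockdown calls of Pim3 (limma adjusted p = 0.052) and Icam1 (0.055) were lost. Several of the small calls rested on single libraries. In the knockdown, calls were lost without KD control replicate 1 for Klf4 (-0.15), Pim3 (-0.14), Icam1 (0.15) and Zfp36 (-0.47), and without KD control replicate 2 for Klf4 (-0.18), Pim1 (-0.20), Pim3 (-0.15), Mcl1 (-0.22) and Icam1 (0.17). They were also lost without KD Zscan4 replicate 1 for Klf4 (-0.08) and without KD Zscan4 replicate 2 for Pim3 (-0.12) and Icam1 (0.14). In the overexpression, calls were lost without OE Zscan4 replicate 1 for Pim1 (0.19) and Pim3 (0.23), and without OE Zscan4 replicate 2 for Pim1 (0.20), Pim3 (0.25), Mcl1 (0.21) and Icam1 (-0.22).

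**Figure D5:**
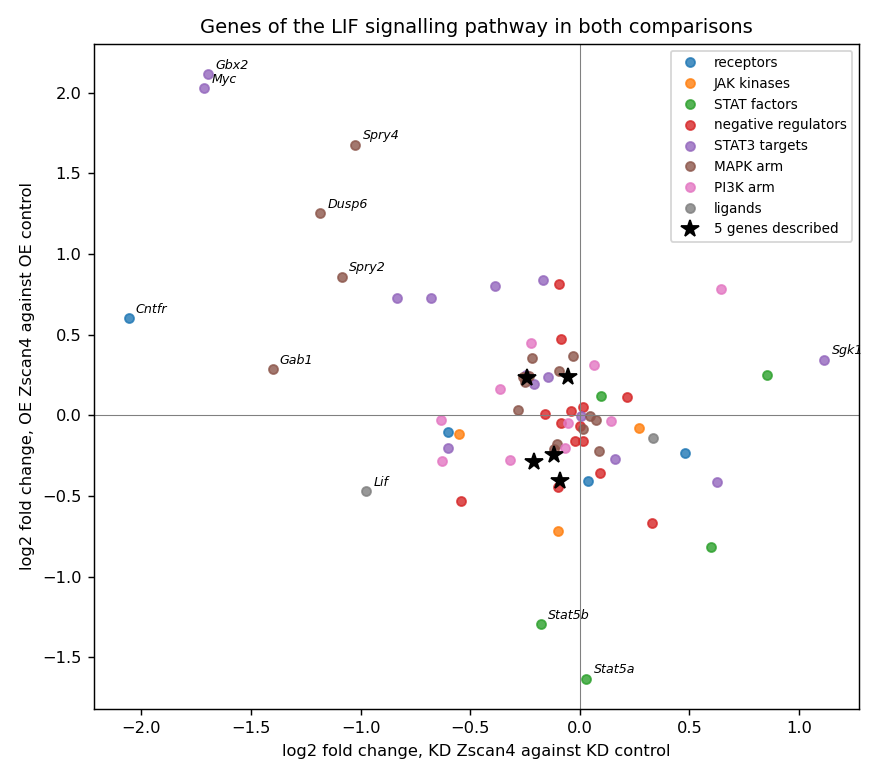
Log2 fold change in the knockdown (horizontal axis) against that in the overexpression (vertical axis) for listed genes present in both tables and reported here, coloured by list; the 5 genes described are black stars. The stars lie within 0.41 of 0 on both axes, while Gbx2, Myc, Spry4, Dusp6, Spry2, Gab1 and Cntfr lie at the upper left, lower in the knockdown and higher in the overexpression.

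The MAPK branch, which LIF also feeds and which favours differentiation, moved in the same directions in its feedback genes. In the knockdown 8 of 17 listed genes fell (median -0.22), and in the overexpression 10 rose and 2 fell (median 0.24). Without OE Zscan4 replicate 1 fewer of these genes passed as higher, and the list's median was 0.18. Neither fall passed without OE Zscan4 replicate 1 or 2. The transcripts of the MAPK inhibitors Dusp6 (-1.18 and 1.25), Spry2 (-1.08 and 0.86) and Spry4 (-1.02 and 1.68) fell and rose by far more than the receptor chains. Gab1, the adaptor between gp130 and both branches, fell from 9881 ± 281 to 3740.1 ± 85.3 in the knockdown (-1.40, SE 0.05 and limma adjusted p = 3.1e-09). It rose by 0.29 in the overexpression, a call lost without OE Zscan4 replicate 1 (0.25). Hras rose by 0.37 in the overexpression. In the PI3K branch 5 of 11 genes fell and 2 rose in the knockdown, and 3 fell and 3 rose in the overexpression, near the 22.1% and 22.3% of all genes. Without KD control replicate 2, 3 rather than 5 fell, and DESeq2 called 1 rather than 3 down in the overexpression. Tbx3, a pluripotency factor gene downstream of this branch, rose in both arms (0.64 and 0.78).

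Markers of other cell types moved with the groups as well. All 11 measured markers of primitive endoderm, the extraembryonic lineage that ES cultures can form, fell in the knockdown (median -3.38). Their summed level was 11527 to 11969 in KD control and 3297 to 3497 in KD Zscan4. In the overexpression, where 22.1% of all genes fell and 22.3% rose, 6 of 10 fell (3 without OE Zscan4 replicate 2 or with DESeq2) and 1 rose (2 without OE control replicate 1, with the replicate block, with a pseudocount of 8 or in the fit of all 8 libraries), and the summed level was 3150 to 3241 in OE control and 3005 to 3083 in OE Zscan4. Gata6, a defining marker, stood at 467 and 383 in KD control, 25.4 and 16.5 in KD Zscan4, 42.0 and 58.7 in OE control and 28.7 and 21.6 in OE Zscan4, so it was at 0 in no library. Not all of the list moved as Gata6 did: in the overexpression the 10 log2 fold changes ran from -1.35 to 1.13. Foxa2, another defining marker, was at 0 in KD Zscan4 replicate 1 and was not among the genes of the overexpression arm. Fibroblast markers summed to 275 to 308 in KD control and 404 to 455 in KD Zscan4. In that arm 2 of 6 rose, fewer without KD control replicate 2 or KD Zscan4 replicate 1. The knockdown log2 fold changes of the 6 ran from -0.98 to 0.91 (median 0.11), and 1 fell with chromosome medians subtracted. In the overexpression arm the sums were 832 to 844 in OE control and 335 to 363 in OE Zscan4. There 3 of 5 fell, and the log2 fold changes ran from -1.98 to 0.11. Dcn, Lum and Twist2 of that list were not measured here. The part of these cell types in the levels of Lifr, Cntfr, Gab1 or the other pathway genes was not tested. In such bulk RNA, fewer cells of a type and less RNA per cell cannot be told apart.

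Last, each of the 5 genes was compared with 10663 genes well measured in both tables, by the Pearson correlation of log2 values over the 8 libraries after each arm was centred. The libraries fall into 4 groups, so the correlations mostly restate the group differences, and they are given as a description. Closest to Stat3 were Lrp1 (r = 0.996), Kat2a (0.994) and Plcg1 (0.994), and closest to Socs3 were Notch1, Mtmr3 and Gna13 (all 0.991). Kat2a, Mtmr3 and Gna13 also lie on chromosome 11. For Jak1 they were Me1 (0.994), Man1c1 (0.980) and Zfas1 (0.976), of which Man1c1 shares chromosome 4. For Lifr they were Gm49380 (0.996), Otud4 (0.992) and Rnf26 (0.986), and for Il6st they included Sart1 (0.981) and Wdr6 (0.976). No gene was among the closest 3 of more than 1 of the 5.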

How the data were processed

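The authors deposited, for each arm, a gene table of normalised signal values. Per the submitters' processing notes, cutadapt, HISAT2, mm10, featureCounts and DESeq2 were used, and their versions, order and strand setting are not given in the sources used here. Tested on the deposited tables, every signal value is a read number divided by a library's factor, since 100% of the products with that factor were whole to within 0.01. Repeat tables were not used here.

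Samples were grouped by title. Ensembl identifiers were matched to GENCODE vM21 (17923 of 17938 genes in the knockdown table, 18272 of 18292 in the overexpression table). The main test was limma (version 3.58.1, R 4.3.3) with a mean-variance trend on log2(value + 1), 2 against 2 libraries within an arm, two-sided, Benjamini-Hochberg adjusted over all genes of the table, at a false discovery rate of 0.05. The difference between arms was a contrast of the within-arm changes over the 17409 shared genes, and the arms share no control. Since the tables hold normalised values, the count tests (edgeR 4.0.16 quasi-likelihood, DESeq2 1.42.0, limma-voom) were run on recovered reads as alternatives. Others were a pseudocount of 8, a minimum mean of 20, TMM scaling, each library left out, a replicate block, all 8 libraries in one fit, and the median change of each gene's chromosome (over protein-coding genes of mean 20 or more) subtracted. Joint levels are recovered reads of the shared genes, TMM-scaled to CPM, divided by the kilobases of merged GENCODE exons. Scripts were tested on simulated data.

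The 5 genes, the gene lists, the tests and the naming rule were chosen with earlier results of these data known. Named genes are the 5, all other ligands, receptors, kinases, STAT factors and STAT3 targets that passed and averaged 20 or more in a group, and up to 4 passing genes per arm with the largest change from the other lists, some of which are counted in their lists only. Some genes that the rule names are not reported here. Gata6, Nanog and Bcl3 were named after their values were seen. The spread between replicates exceeded counting noise (chi-square over genes divided by its degrees of freedom, 2.81 to 4.71), and no 2 libraries were merged. Molecular identifiers are not stated, so reads are not independent molecules.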

Additional observations from a re-analysis of the deposited data

Results flagged for a closer look

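Each value here is the log2 fold change in the overexpression minus that in the knockdown, taken up because the test of this difference passed (limma adjusted p under 0.05). Over all 17409 shared genes 44.7% passed, so a pass is common in these libraries. For Lifr the difference was 0.47 (limma adjusted p = 0.0033), with the gene lower in both KD Zscan4 libraries and higher in both OE Zscan4 libraries than in their controls. Il6st differed by 0.29 (limma adjusted p = 0.023), with overlapping groups in the knockdown. Socs3 differed by -0.32 (limma adjusted p = 0.0033), which was 0.0030 with chromosome medians subtracted.

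For the pathway genes that passed in both arms in opposite directions, the choice of genes fixes that the arms differ, so these differences are given as a description. Of the STAT3 targets, Gbx2 differed by 3.81, Myc by 3.74, Klf5 by 1.56, Junb by 1.40, Sall4 by 1.18, Klf4 by 1.00, Mcl1 by 0.50, Pim1 by 0.41 and Pim3 by 0.38. Icam1 (-0.43) and Tfcp2l1 (-1.04) differed the other way. Of the MAPK branch, Spry4 differed by 2.70, Dusp6 by 2.44, Spry2 by 1.94 and Gab1 by 1.69. The receptor gene Cntfr differed by 2.66 and the PI3K subunit gene Pik3r2 by 0.67. Stat2 differed by -1.41 and the phosphatase gene Ptpn6 by -0.999.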

How the results depend on the processing

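Of the values given for the 5 genes and for the totals of called genes, 235 counted as unchanged under the alternatives. For a gene this means the same direction and side of the threshold, and for a total a count within 1.5 times. Of the gene values, 26 kept the direction and lost the call and 3 changed sign, while 4 totals moved by more than 1.5 times. Where an alternative left out a library, the lone remaining library was assumed to vary like the other groups. The causes of the changes below were not tested.

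DESeq2 called 4107 genes in the knockdown (1882 up) against 6403 (3082 up) with limma, and 2662 down in the overexpression against 4039. It ended the calls of Lifr (knockdown -0.24, overexpression 0.23), Il6st (overexpression 0.24) and Jak1 (overexpression -0.25). The overexpression call of Lifr also ended with edgeR (0.21), limma-voom (0.22) and TMM scaling (0.21). Subtracting chromosome medians ended the calls of Lifr in the knockdown (-0.17) and of Il6st (0.18) and Socs3 (-0.068) in the overexpression, turned Stat3 there to 0.045, ended the difference of Il6st (0.24) and turned those of Stat3 (0.23) and Socs3 (0.0030).

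With 1 library left out, genes called ranged from 4416 to 6087 in the knockdown, those called down from 2179 to 3249, and genes called in the overexpression from 5964 to 7975. Lifr ranged from -0.31 to -0.18 in the knockdown and from 0.11 to 0.34 in the overexpression, Stat3 from -0.23 to -0.18 and from -0.33 to -0.26. In the overexpression Il6st ranged from 0.20 to 0.28 and Jak1 from -0.30 to -0.19. The difference of Il6st ranged from 0.25 to 0.34.

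Of the other genes and lists, 13 values changed sign, none of them with a call after the change. In the knockdown these were Jak2 (0.079 without KD control replicate 1, 0.025 when KD Zscan4 replicate 1 was left out, and down to -0.28 over the libraries left out), Stat5a (-0.00040 with edgeR, -0.18 without KD control replicate 2, -0.099 when KD Zscan4 replicate 1 was left out) and Hras (0.023 without KD control replicate 2, 0.10 when KD Zscan4 replicate 2 was left out, 0.033 with chromosome medians subtracted). In the overexpression they were Il11ra1 (-0.41 to 0.21 over the libraries left out, above 0 without OE control replicate 1 or, at 0.018, OE Zscan4 replicate 2), Jak3 (0.030 without OE control replicate 2) and Pik3r1 (0.053 without OE control replicate 2, 0.00063 without OE Zscan4 replicate 1, and down to -0.11 over the libraries left out).

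Libraries of the same replicate number did not deviate together (correlation -0.08 in both arms). Such a correlation cannot show whether libraries were handled in pairs. With the replicate block, the knockdown had 6924 called genes and the overexpression 8188, and calls were lost for Pim3 and Icam1 in the knockdown and Lif in the overexpression, while no call on the 5 genes changed: Lifr stood at -0.24 and 0.23 with a replicate block, as without it.

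The knockdown changes of Jak1 (-0.12), Socs3 (-0.09) and Il6st (-0.06) did not pass with 2 libraries a group, which does not show that these genes did not change.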
